A study of Sordaria macrospora with 16 samples.

Results

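In the wild type of the filamentous ascomycete *Sordaria macrospora*, the places were examined where the histone mark H3K27me3 departed from the recovery of nucleosomes. The comparison was made of the 4 precipitated libraries labelled wild type, which are 2 H3K27me3 libraries and 2 H3 libraries out of the 16 samples of the series. Of these 16 samples, 8 have a list of peaks and 8 are inputs that were not analysed here. The other 4 lists come from the mutant Δasf1 and are used only for a short comparison between strains.

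All 4 libraries came from mycelium that had grown in constant light and liquid complete medium at 27 °C, and growth lasted 2 days. Mycelium was fixed in 1% formaldehyde for 15 min, and micrococcal nuclease (230 U/ml, 105 min) was used to cut the chromatin. The H3K27me3 libraries were precipitated with the monoclonal antibody C36B11 and the H3 libraries with an antibody to histone H3. Replicates 1 and 2 of each antibody are biologically independent per the series description. Each library holds many nuclei, so a mark present in fewer nuclei and a weaker mark in all nuclei cannot be told apart. Peak positions hold no marker of tissue, and the mycelial origin could not be checked.

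H3K27me3 is trimethylation of lysine 27 on histone H3 and is placed by Polycomb repressive complex 2. In *Neurospora crassa*, a close relative of *S. macrospora*, the mark lies in broad domains of silent genes, many of them near chromosome ends. An antibody to H3 binds nucleosomes whether or not they carry the mark, so an H3 library shows where nucleosomes were recovered. A peak is an interval in which the authors' peak caller found more reads than its background. The share of a sequence lying in peaks is called its cover here, and it is neither a level of the mark nor a level of H3.

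The 2 H3K27me3 lists were not alike, and replicate 1 stood apart from replicate 2. The base-pair Jaccard index is the length shared by 2 lists as a percentage of the length in either list. It was 24.9% between the 2 H3K27me3 lists and 42.9% between the 2 H3 lists. H3K27me3 replicate 1 had an index of 40.6% with H3 replicate 1 and 36.2% with H3 replicate 2, both above its index with the other H3K27me3 list. H3K27me3 replicate 2 had an index of only 20.3% with H3 replicate 1 and 21.5% with H3 replicate 2. Of the length of H3K27me3 replicate 1, 62.9% lay in peaks of H3 replicate 1 and 73.4% in peaks of H3 replicate 2. For H3K27me3 replicate 2 these shares were 36.1% and 47.9%. The lists also ended at different cutoffs by replicate number, with a smallest −log10 q of 2.02 and 2.05 in the lists of replicate 1 and of 1.01 and 1.03 in those of replicate 2. Therefore, values are given for each library and differences are given within each replicate number.

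Grouped by antibody, the mean Jaccard index within groups was 33.9% and the mean between groups 29.6%. The difference was 4.26 points (exact one-sided test over the 3 ways to pair 4 libraries, p = 0.33, the smallest value possible). Grouped by replicate number, the same difference was −0.02 points, and for the crossed grouping it was −4.23 points. The sign for the grouping by antibody depended on the H3 lists. Without H3 replicate 1 the difference was −3.90 points, and without H3 replicate 2 it was −5.49 points. Without H3K27me3 replicate 1 it was 21.9 points and without H3K27me3 replicate 2 it was 4.48 points.

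Fewer peaks were listed for H3K27me3 than for H3. The H3K27me3 lists held 4856 and 4764 peaks, against 6367 and 6525 peaks in the H3 lists. The groups did not overlap, and the ratio of H3K27me3 to H3 was 0.75, with 0.76 within replicate 1 and 0.73 within replicate 2 (exact two-sided permutation test, p = 0.33, adjusted p = 0.583 over 7 comparisons). The lists ended at unlike cutoffs. In replicate 2 the median −log10 q was 2.00 for H3K27me3 and 2.02 for H3, under the 2.05 at which the strictest list ended. At least 50% of the peaks in these 2 lists would be lost at that cutoff. The lack of overlap thus holds for the lists as given only. With 2 libraries per antibody, 0.33 is the smallest p this test can give, so no comparison of this kind can pass 0.05.

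Peaks covered 6.96 and 7.20 Mb in the H3K27me3 libraries, against 8.22 and 12.3 Mb in the H3 libraries, of a genome of 39.4 Mb. The ratio was 0.69 over both replicates, 0.85 within replicate 1 and 0.59 within replicate 2 (exact permutation test, p = 0.33, adjusted p = 0.583). The 2 H3K27me3 values lie close together, whereas H3 replicate 2 covered far more than H3 replicate 1. Averages were 7.08 ± 0.17 Mb for H3K27me3 and 10.3 ± 2.88 Mb for H3 (SD, n = 2 each).

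At the chromosome ends the mark departed from H3 in both replicates. Of the length covered by H3K27me3, 6.03% and 12.5% lay within 100 kb of an end, against 2.17% and 2.66% of the length covered by H3. These terminal stretches make up 3.55% of the genome, so both H3K27me3 lists exceeded this share and both H3 lists fell short of it. The difference was 6.83 points, with 3.86 points within replicate 1 and 9.80 points within replicate 2 (exact permutation test, p = 0.33, adjusted p = 0.583). Without H3K27me3 replicate 1 it was 10.0 points and without H3K27me3 replicate 2 it was 3.62 points. The peaks of the rRNA gene array at the right end of chromosome 2 are included, and without them the difference was 6.70 points.

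Cover was then followed from the ends into the chromosomes, with the right arm of chromosome 2 (from its midpoint) left out because the rRNA genes fill its end. In the outermost 10 kb, H3K27me3 peaks covered 81.7% in replicate 1 and 99.4% in replicate 2, against 26.4% and 58.9% for H3. At 20 to 50 kb from the end, H3K27me3 covered 23.2% and 80.6%, against 3.64% and 10.8% for H3. The ratio of H3K27me3 to H3 in this zone was 6.37 within replicate 1 and 7.50 within replicate 2, the highest of the 8 distance zones in both replicates. H3 cover was lower there than in the zones on either side, in both replicates.

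**Figure D1:**
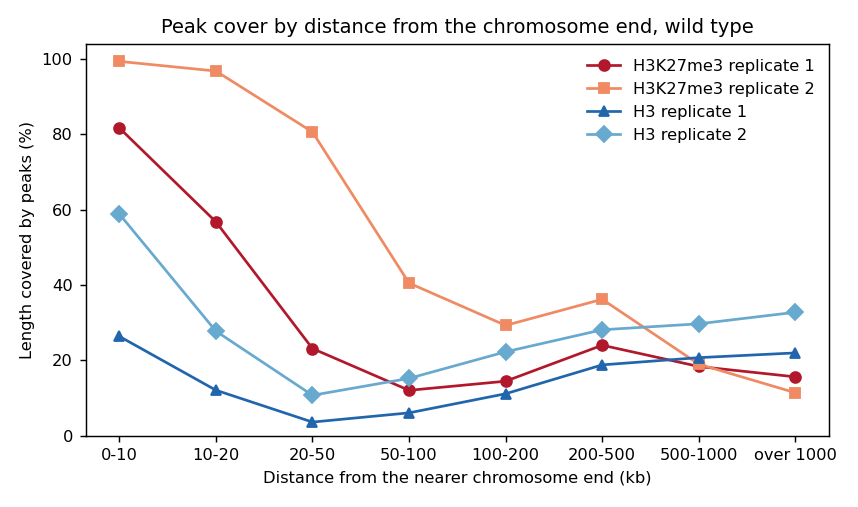
Length covered by peaks (%, vertical axis) in 8 zones of distance from the nearer chromosome end (kb, horizontal axis), for the 4 wild type libraries and without the right arm of chromosome 2. Both H3K27me3 lines lie above both H3 lines up to 50 kb from the end, where H3K27me3 covers 23.2% and 80.6% at 20 to 50 kb, and both lie below both H3 lines beyond 500 kb.

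Farther inside, the order of the antibodies turned round. At 50 to 100 kb from the end, H3K27me3 covered 12.1% and 40.5%, against 6.09% and 15.2% for H3, so the groups overlapped although H3K27me3 was higher within each replicate. At 200 to 500 kb H3K27me3 peaks made up 24.04% and 36.2% of the sequence, against 18.8% and 28.1% for H3 peaks. Beyond 1000 kb, H3K27me3 covered 15.6% and 11.4%, against 22.0% and 32.8% for H3. There H3K27me3 had 0.71 times the cover of H3 in replicate 1 and 0.35 times in replicate 2. In the zone from 100 to 200 kb the mean difference took the other sign when H3K27me3 replicate 2 or H3 replicate 1 was left out, so the turning point was not placed more closely.

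The ends were examined one by one. H3K27me3 covered more of the terminal 100 kb than H3 within each replicate number at 13 of 14 ends, and both H3K27me3 libraries exceeded both H3 libraries at 11 of 14 ends. Over the 13 ends without the rRNA array, H3K27me3 replicate 1 covered 13.8% to 35.9% (median 25.6%) and replicate 2 covered 35.8% to 91.8% (median 59.1%). H3 replicate 1 covered 4.27% to 18.1% (median 7.19%) and H3 replicate 2 covered 12.1% to 28.7% (median 18.5%). Among these 13 ends, the right end of chromosome 7 and the left end of chromosome 4 were the most covered by H3K27me3 on average, with 35.9% and 91.8% for H3K27me3 against 7.34% and 28.7% for H3 at the first, and 33.8% and 89.8% against 6.45% and 18.5% at the second. The right end of chromosome 5 was the least covered by H3K27me3, with 13.8% and 35.8%, against 5.44% and 20.4% for H3.

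The right end of chromosome 2, which holds all 30 rRNA genes of the gene table, was the exception. H3K27me3 covered 71.4% and 64.3% of it, against 74.7% and 73.8% for H3. All 4 libraries were high at this end, and H3K27me3 lay below H3 within both replicates. Without the peaks in the array the mean difference at this end was +0.50 points. The rRNA genes occur as repeated copies, and reads from repeated copies cannot be assigned to 1 of them, so this stretch is reported as uncertain.

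**Figure D2:**
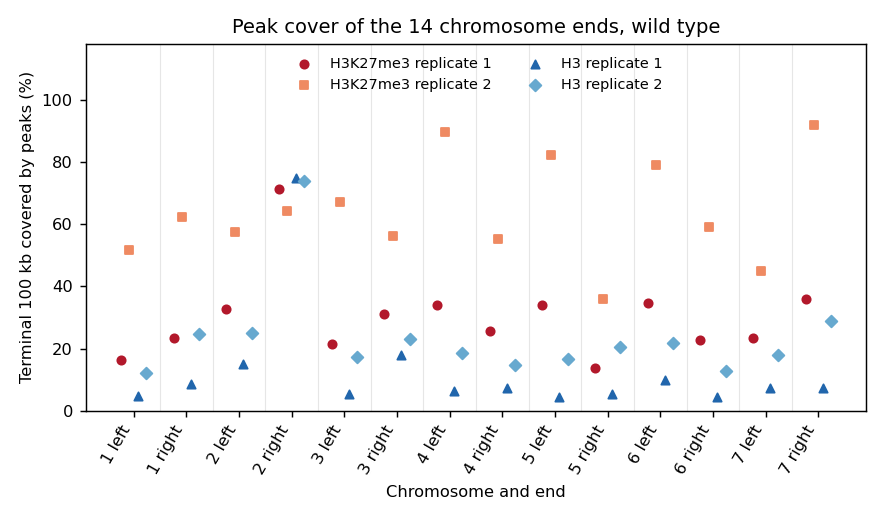
Cover of the terminal 100 kb by peaks (%, vertical axis) at the 14 ends of the 7 chromosomes (horizontal axis), 1 point for each wild type library. H3K27me3 replicate 2 is highest at 13 ends, and at the right end of chromosome 2, with the rRNA genes, all 4 libraries lie between 64.3% and 74.7%.

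H3K27me3 peaks, like those of H3 replicate 2, began close to the ends of the chromosomes. At the 13 ends without rRNA genes the first H3K27me3 peak began within 1 kb of the end at 13 ends in both replicates, against 7 ends in H3 replicate 1 and 13 ends in H3 replicate 2. A right end was taken as the last position in any list or gene. On chromosomes 1, 3, 4, 5, 6 and 7 this was the end of a peak of H3K27me3 replicate 2, so its distance of 0 there was fixed in advance. The median width of this first peak was 6989 bp and 30657 bp for H3K27me3, against 1078 bp and 5099 bp for H3. The widest was 73912 bp in H3K27me3 replicate 2, at the left end of chromosome 4 from 121 to 74032. H3K27me3 replicate 1 split this stretch into 10 peaks that covered 43.6% of it, against 7.48% for H3 replicate 1 and 22.5% for H3 replicate 2.

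Median peak widths overlapped between the antibodies, and the lists differed more among their widest peaks. Median widths were 1079 and 913.5 bp for H3K27me3, against 1005 and 1408 bp for H3. The groups overlapped, with a ratio of 1.07 within replicate 1 and 0.65 within replicate 2 (exact permutation test, p = 0.667, adjusted p = 0.667). Peaks of 5 kb or more held 10.5% and 27.5% of the H3K27me3 length, against 4.88% and 17.3% of the H3 length. H3K27me3 was higher within each replicate, by 5.59 and 10.2 points, but the groups overlapped (exact permutation test, p = 0.667, adjusted p = 0.667). Without H3K27me3 replicate 2 the difference was −0.61 points, and for peaks of 2 kb or more it was −4.12 points. For peaks of 10 kb or more, which held 2.63% and 18.1% of the H3K27me3 length against 0.88% and 1.67% of the H3 length, the groups did not overlap and the difference was 9.10 points (exact permutation test, p = 0.33).

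The widest class of H3K27me3 peaks lay less in H3 peaks than the narrowest, in both replicates. Peaks in the rRNA array are left out of the following values. Among H3K27me3 peaks of replicate 2 under 0.5 kb, 42.6% of the length lay in H3 replicate 1 and 52.8% in H3 replicate 2. Among the 49 peaks of 10 kb or more these shares were only 16.1% and 29.7%. In H3K27me3 replicate 1 the shares were 64.3% and 69.6% for peaks under 0.5 kb, and 38.9% and 50.8% for the 11 peaks of 10 kb or more.

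Agreement between the H3K27me3 lists ran the other way from the narrowest to the widest class, and again not steadily. Of the length of replicate 1, 31.4% lay in replicate 2 for peaks under 0.5 kb and 92.3% for peaks of 10 kb or more. Of the length of replicate 2, 29.8% lay in replicate 1 for peaks under 0.5 kb and 50.9% for peaks of 10 kb or more. Wider peaks also contained less gene sequence. In H3K27me3 replicate 2 with the array included, 78.5% of the length of peaks under 0.5 kb and 40.5% of that of peaks of 10 kb or more lay in genes, and in replicate 1 the shares were 86.9% and 52.0%.

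**Figure D3:**
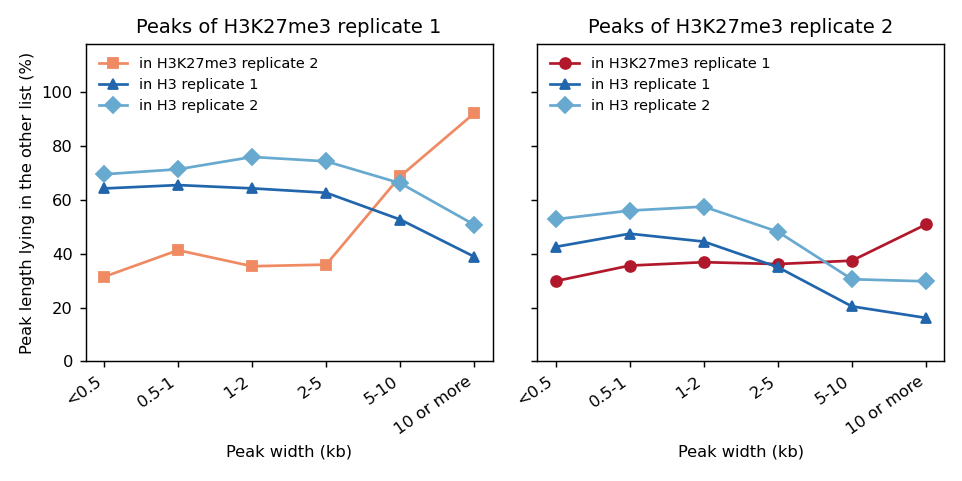
Length of H3K27me3 peaks that lay in each of the other wild type lists (%, vertical axis) by peak width (kb, horizontal axis), without peaks in the rRNA gene array, for replicate 1 (left) and replicate 2 (right). The share in H3 replicate 1 is lower in the widest class than in the narrowest, with 38.9% for replicate 1 and 16.1% for replicate 2. The share in the other H3K27me3 list is higher in the widest class, with 92.3% and 50.9%. The classes between do not change steadily.

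The 2 widest H3K27me3 peaks of replicate 2 lay away from the ends. The first spanned 104764 bp on chromosome 4, from 516144 to 620907, and touched 30 genes. H3K27me3 replicate 1 had 22 separate peaks in it that covered 65.2%, whereas H3 replicate 1 covered 15.4% and H3 replicate 2 covered 29.4%. The second spanned 91560 bp on chromosome 3, from 5306422 to 5397981, with 65.2% covered by H3K27me3 replicate 1, 23.1% by H3 replicate 1 and 23.2% by H3 replicate 2. The third was the end of chromosome 4 described above. By contrast, the 3 widest peaks of H3K27me3 replicate 1 and of both H3 lists all lay in the rRNA array, with the widest at 19675 bp for H3K27me3, against 28313 and 19661 bp for the H3 lists.

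H3K27me3 replicate 2 had 49 peaks of 10 kb or more outside the array. Of these, 19 lay within 100 kb of an end, 15 between 100 and 500 kb and 15 farther inside. H3K27me3 replicate 1 covered a median of 46.0% of such a peak, against 14.4% for H3 replicate 1 and 29.4% for H3 replicate 2. Replicate 1 of the mark covered more than H3 replicate 1 in 46 of the 49 peaks and more than both H3 lists in 38. Conversely, H3K27me3 replicate 2 covered more than both H3 lists in 10 of the 11 peaks of 10 kb or more in H3K27me3 replicate 1. The exception lay on chromosome 1, from 1617199 to 1627983, where H3K27me3 replicate 2 covered 4.37%, against 90.2% for H3 replicate 1 and 85.4% for H3 replicate 2.

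The authors' fold enrichment, the mean excess of a peak over the caller's background, was low in all lists. Medians were 1.37 and 1.32 for H3K27me3, against 1.41 and 1.28 for H3. In H3K27me3 replicate 2 the median was 1.31 for peaks under 0.5 kb and 1.71 for peaks of 10 kb or more, and in replicate 1 it was 1.36 and 1.46 with the array included. Within 100 kb of an end the median was 1.35 and 1.38 for H3K27me3, against 1.34 and 1.25 for H3. Beyond 500 kb it was 1.37 and 1.32 for H3K27me3, against 1.42 and 1.29 for H3. Each value is relative to the background of its own library, so levels are not compared between lists.

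Along the chromosomes, windows with less H3K27me3 than H3 outnumbered those with more. Windows of 50 kb were laid from the left end of each chromosome, which gave 786 windows. The incomplete last window of each chromosome was left out, so the right tips are missing from the counts, runs and ranking. In 61 windows (7.76%) both H3K27me3 libraries covered more than both H3 libraries, and in 502 windows (63.9%) both covered less. Within 100 kb of an end 14 of 28 windows were of the first kind, between 100 and 500 kb 31 of 112, and beyond 500 kb 16 of 646. Of the windows with less H3K27me3, 480 lay beyond 500 kb. The numbers depended on the lengths of the lists. With a common −log10 q cutoff of 2.05 there were 112 windows with more and 352 with less H3K27me3, and with the 4764 top peaks of each list 105 and 352. The number of windows with more H3K27me3 was 137 without H3K27me3 replicate 1, 66 without H3K27me3 replicate 2, 63 without H3 replicate 1 and 149 without H3 replicate 2.

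The differences between antibodies followed each other in the 2 replicates. Over the 786 windows the correlation of the difference in replicate 1 with that in replicate 2 was 0.73 (Pearson's r), and it was 0.53 over the 646 windows beyond 500 kb. Cover itself correlated with r = 0.61 between the H3K27me3 lists and r = 0.70 between the H3 lists. H3K27me3 replicate 1 correlated with H3 at r = 0.45 and 0.34, whereas H3K27me3 replicate 2 gave r = −0.13 and −0.15. These values describe windows, which share libraries and neighbours, and are no test.

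**Figure D4:**
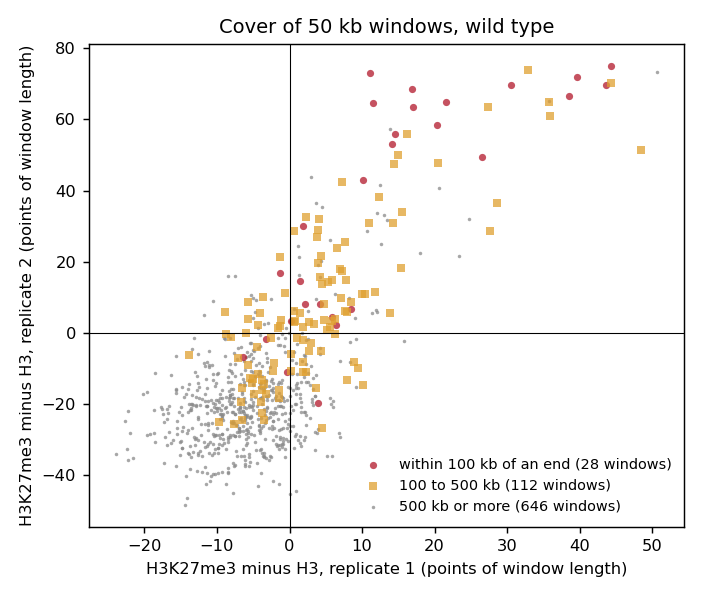
H3K27me3 minus H3 cover (points of window length) in replicate 1 (horizontal axis) and replicate 2 (vertical axis) for 786 windows of 50 kb, coloured by distance from the nearer end. Windows within 100 kb of an end lie mostly in the upper right part and most of the 646 windows beyond 500 kb in the lower left part (r = 0.73 over all windows).

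Windows were ranked by the smaller of their 2 within-replicate differences, which gives another order than the mean difference. The window with the largest excess on this measure lay on chromosome 4, from 550001 to 600000, with 67.1% and 100% covered by H3K27me3, against 16.4% and 26.7% by H3. It is part of the widest peak given above. The next in this order were on chromosome 5 from 150001 to 200000, with 66.2% and 81.6% for H3K27me3 against 17.7% and 30.1% for H3, and on chromosome 3 from 5350001 to 5400000, with 65.7% and 96.0% against 21.3% and 25.7%. The first 50 kb of chromosomes 5, 4 and 6 followed.

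At the other extreme of the same ranking, the window on chromosome 3 from 2650001 to 2700000 had 5.60% and 7.64% H3K27me3 cover, against 29.5% and 41.6% for H3. The other 5 of the 6 windows at this extreme lay on chromosomes 1, 2 and 3 at least 800 kb from an end. Their H3K27me3 cover was 6.34% to 19.95%, against 29.5% to 46.9% for H3. In contrast to the windows with an excess, none was terminal.

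Windows with more H3K27me3 formed 37 runs, of which 12 held 2 or more adjacent windows and 11 lay less than 50 kb from an end. The longest runs held 6 windows each. The run from 1 to 300000 on chromosome 5 had 49.0% and 83.4% H3K27me3 cover, against 14.4% and 26.01% for H3. The run from 200001 to 500000 on chromosome 2 had 32.3% and 60.5%, against 17.1% and 25.4%. On chromosome 7, the run from 3550001 to 3650000, which touches no end, had 29.5% and 78.6%, against 13.9% and 25.7%.

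All 7 chromosomes had less H3K27me3 than H3 cover in both replicates. The ratio of H3K27me3 to H3 was lowest on chromosome 1, the longest, with 0.74 within replicate 1 and 0.38 within replicate 2. It was highest on chromosome 6, with 0.98 and 0.79. Beyond 500 kb from an end chromosome 6 was covered to 19.4% and 19.5% by H3K27me3, against 21.3% and 30.7% by H3, whereas chromosome 1 was covered to 14.8% and 9.97%, against 21.1% and 32.6%. Thus, the interior of chromosome 6 had more H3K27me3 cover than that of chromosome 1 in both replicates.

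Joining the peaks of the 4 lists gave 7997 regions. Of these, 96 regions (1.2%) had peaks of both H3K27me3 lists and of no H3 list, whereas 713 (8.92%) had peaks of both H3 lists and of no H3K27me3 list. At the common −log10 q cutoff these numbers were 149 and 407, and with equal numbers of top peaks 265 and 365. Peaks of all 4 lists occurred in 1979 regions (24.7%). A further 1325 regions had peaks of both H3 lists and H3K27me3 replicate 1 but not replicate 2, and 830 had peaks of H3K27me3 replicate 2 alone.

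These counts require agreement of all lists kept, and they rise when a list is dropped. There were 957 H3K27me3-only regions without H3K27me3 replicate 1, 337 without H3K27me3 replicate 2, 208 without H3 replicate 1 and 359 without H3 replicate 2. The corresponding numbers of H3-only regions were 2080, 1268, 1568 and 1418. Sorted by replicate number instead of antibody, 133 regions had peaks of both replicate 1 lists only and 389 of both replicate 2 lists only. The crossed pairs gave 147 and 176 regions.

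Measured in length, both H3K27me3 lists shared 2.83 Mb, of which 21.7% lay in no H3 peak. Of the 4.14 Mb found in H3K27me3 replicate 1 alone 14.1% lay outside H3, and of the 4.37 Mb found in H3K27me3 replicate 2 alone 58.5% did. Positions with H3K27me3 in both lists and H3 in none made up 0.61 Mb, or 1.56% of the genome. They lay in genes to 49.2% and within 100 kb of an end to 24.4%. Positions with H3 in both lists and H3K27me3 in none made up 1.81 Mb, of which 84.6% lay in genes and 0.31% within 100 kb of an end. Positions covered in all 4 lists made up 1.41 Mb, less than those of H3 alone, with 79.1% in genes and 9.57% within 100 kb of an end. The rRNA array at the right end of chromosome 2 is included in these values.

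The longest uninterrupted stretches that only H3K27me3 covered were terminal. The longest was 7840 bp on chromosome 3, from 5696806 to 5704645, over the genes SMAC4_13574 and SMAC4_12954, whose functions the gene table does not give. Next came 6157 bp on chromosome 6 from 11560 to 17716, over 3 genes that include SMAC4_09752, and 5083 bp on chromosome 4 from 5092542 to 5097624, over SMAC4_13711 and SMAC4_13710. Of the 10 longest such stretches 7 lay less than 20 kb from an end, and the shortest of the 10 had 3194 bp. The other 3 lay on chromosome 5 from 164901 to 168558 (SMAC4_09122 to SMAC4_09124), on chromosome 3 from 5363739 to 5367390 and on chromosome 2 from 5604538 to 5608095 (SMAC4_05098). In these 3 the fold enrichment of the peaks was 1.37 to 1.51 in replicate 1 and 1.37 to 1.76 in replicate 2. Of all 47 stretches of 2 kb or more, 36 lay within 500 kb of an end, a zone that makes up 17.7% of the genome. Stretches covered in all 4 lists also lay there in 37 of 71 cases, with those in the rRNA array included.

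The longest stretch that only H3 covered had 4387 bp, on chromosome 3 from 5200552 to 5204938, over SMAC4_09256 and SMAC4_09255. It was followed by 4319 bp on chromosome 4 from 1435380 to 1439698 and 4002 bp on chromosome 6 from 376038 to 380039, inside SMAC4_13902. Of the 6 longest, 5 lay more than 500 kb from an end. Only 4 of the 54 stretches of 2 kb or more lay within 500 kb of an end.

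Outside the rRNA array, the longest stretch covered in all 4 lists had 6082 bp at the right end of chromosome 3, from 5707312 to 5713393, over SMAC4_13576 and SMAC4_13577. It lay in the same H3K27me3 peak of replicate 2 as the longest H3K27me3-only stretch. Others lay on chromosome 5 from 2035872 to 2041043 (5172 bp), at the right end of chromosome 4 from 5101674 to 5106682 (5009 bp), on chromosome 2 from 4890811 to 4895606 (4796 bp) and on chromosome 4 from 283133 to 287426 (4294 bp). In the array the longest had 14934 bp.

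H3K27me3 peaks contained less gene sequence than H3 peaks within each replicate. Genes held 76.8% and 62.8% of the H3K27me3 length, against 82.4% and 76.2% of the H3 length, and they make up 58.2% of the genome. The groups overlapped slightly, and the difference was −9.49 points, with −5.60 within replicate 1 and −13.4 within replicate 2 (exact permutation test, p = 0.667, adjusted p = 0.667). Without H3K27me3 replicate 2 the difference was −2.47 points, and without H3K27me3 replicate 1 it was −16.5 points.

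Few genes were covered by 1 antibody alone. Of 10804 genes in the table, 107 (0.99%) were covered to at least 50% in both H3K27me3 lists and to under 10% in both H3 lists. The reverse held for 188 genes (1.74%). This order was not kept when the lists were made more alike, with 158 H3K27me3-only and 151 H3-only genes at the common −log10 q cutoff and 187 and 119 with equal numbers of top peaks. The number of H3K27me3-only genes was 581 without H3K27me3 replicate 1, 148 without H3K27me3 replicate 2, 158 without H3 replicate 1 and 246 without H3 replicate 2, and that of H3-only genes 1006, 357, 824 and 303. At least 50% cover in all 4 lists was found for 470 genes, and 1860 genes had no peak in any list.

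H3K27me3-only genes were short and close to ends. Their median length was 882 bp, against 1543 bp for H3-only genes and 1860.5 bp for all genes. Of the 107 genes, 32 (29.9%) lay within 100 kb of an end and 74 within 500 kb, against 1 and 6 of the 188 H3-only genes. Of the 470 genes covered in all 4 lists 72 (15.3%) lay within 100 kb of an end, and of all genes 4.20%. The gene table gives no older locus tag for 37 of the 107 genes (34.6%), against 10 of the H3-only genes (5.32%), 136 of the genes covered in all 4 lists (28.9%) and 7.52% of all genes. Of the 470 genes, 425 are protein-coding and 26 are rRNA genes, which lie at the right end of chromosome 2. These rRNA genes and the genes labelled misc_RNA among the 470 all lie within 100 kb of an end and make up most of the 72. The share of the other genes near ends was therefore lower than 15.3%. For older locus tags, values without the rRNA array were not computed, so it is not known whether the 470 genes share that feature outside it. A gene without an older tag has no counterpart listed from earlier annotations.

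The longest H3K27me3-only gene was SMAC4_09791 on chromosome 5 with 3747 bp, covered to 63.0% and 70.0% by H3K27me3 and to 0% in both H3 lists. SMAC4_09661 on chromosome 5 (3633 bp) was covered to 94.1% and 100% by H3K27me3, against 7.05% and 0% by H3. SMAC4_09315 on chromosome 4 (2959 bp) was covered to 88.7% and 100%, against 0% in both H3 lists. The others of the 10 longest were SMAC4_09595, SMAC4_07622, SMAC4_01568, SMAC4_09474, SMAC4_07299, SMAC4_09606 and SMAC4_09172, with 55.3% to 100% H3K27me3 cover and at most 9.45% H3 cover. SMAC4_07622 on chromosome 2 and SMAC4_09606 on chromosome 3 lay within 50 kb of an end, whereas SMAC4_01568 on chromosome 1 lay 3838 kb away from one.

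The longest H3-only gene was SMAC4_05397 on chromosome 1 with 6250 bp, covered to 1.55% and 0% by H3K27me3, against 69.1% and 88.6% by H3. SMAC4_01242 (5923 bp) was covered to 0% in both H3K27me3 lists, against 57.0% and 67.3% by H3. SMAC4_13902 (4477 bp), which holds the third longest H3-only stretch, was covered to 4.40% and 0%, against 93.8% and 93.9%. The remaining 7 of the 10 longest were SMAC4_02386, SMAC4_05315, SMAC4_03052, SMAC4_04988, SMAC4_05506, SMAC4_08333 and SMAC4_02371, with at most 6.06% H3K27me3 cover and 51.4% to 100% H3 cover.

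Protein-coding genes differed by position in the same way as the windows. The mean cover of the 392 protein-coding genes within 100 kb of an end was 30.05% and 66.2% for H3K27me3, against 10.0% and 22.7% for H3. For the 8418 genes beyond 500 kb it was 22.8% and 18.2%, against 30.2% and 42.1%. Near the ends, the 126 genes without an older locus tag had 54.2% and 90.7% H3K27me3 cover, against 16.2% and 33.4% H3 cover. The 451 such genes beyond 500 kb had 23.8% and 34.1%, against 23.7% and 33.8%, so the antibodies differed by less than 1 point within each replicate.

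Gene length went with cover by H3K27me3 in replicate 2 in particular. Among protein-coding genes under 1 kb, 24.1% and 38.5% were covered to at least 50% by H3K27me3, against 21.9% and 33.8% by H3. Among those of 3 kb or more the shares were 14.3% and 6.93%, against 20.9% and 35.8%.

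All lists had more cover in the middle of genes than at their edges. The gene table gives no strand, so each gene of 1 kb or more was folded at its midpoint. In the 7160 genes beyond 500 kb, cover in the outermost 10% of the gene was 13.97% and 10.9% for H3K27me3, against 18.0% and 31.2% for H3. In the middle it was 27.7% and 17.0% for H3K27me3, against 38.5% and 49.0% for H3. In the 284 genes within 100 kb of an end, cover at the edge was 19.4% and 51.0% for H3K27me3, against 5.96% and 14.9% for H3, and in the middle 26.7% and 60.2%, against 13.8% and 26.5%. Near the ends, cover at 800 to 1000 bp outside the gene was above that at the edge for both H3K27me3 lists (22.0% and 55.1%). The same held for H3 replicate 2 (15.7%) but not for H3 replicate 1 (5.56%). Beyond 500 kb, cover there was above the edge in both H3K27me3 lists (15.5% and 12.2%) and H3 replicate 1 (20.5%), but not in H3 replicate 2 (30.7%). H3K27me3 lay above H3 near the ends within each replicate and below it farther inside.

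**Figure D5:**
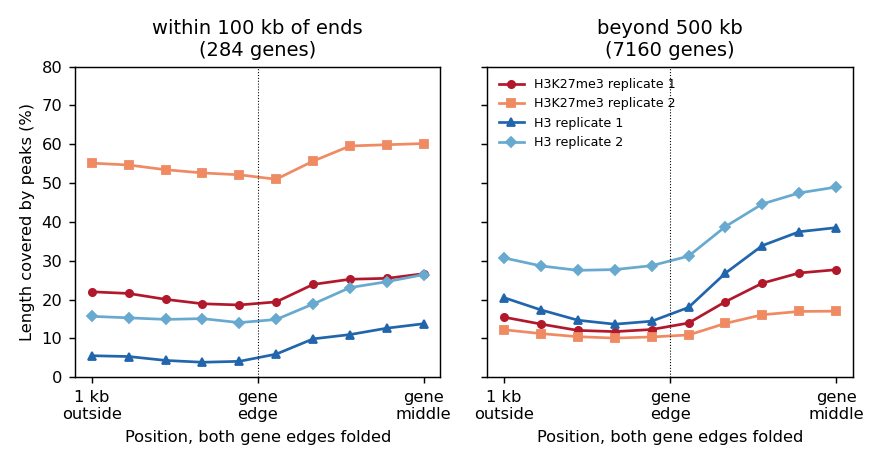
Length covered by peaks (%, vertical axis) from 1 kb outside a gene to its middle (horizontal axis, both edges folded), for the 4 wild type libraries in protein-coding genes of 1 kb or more. Near chromosome ends (left, 284 genes) H3K27me3 reaches 26.7% and 60.2% in the middle of the gene, and beyond 500 kb (right, 7160 genes) H3 is higher within each replicate, with 38.5% and 49.0%.

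The position of the mark was set against the mutant Δasf1, which lacks the histone chaperone ASF1 and was grown for 3 days, so strain and growth time cannot be told apart. In the wild type the share of covered length within 100 kb of an end was higher for H3K27me3 than for H3 by 3.86 and 9.80 points. In Δasf1 the difference was −0.46 and −0.49 points, with 1.77% and 2.62% for H3K27me3 against 2.23% and 3.11% for H3. The difference between strains was 7.30 points (exact permutation test over 2 differences per strain, p = 0.33, the smallest value possible). These shares include the rRNA array at the right end of chromosome 2. Over the 13 ends without it, Δasf1 had a median cover of the terminal 100 kb of 5.21% and 13.4% for H3K27me3. For H3 it was 10.2% and 7.93%. At these ends H3K27me3 thus lay below H3 in replicate 1 of Δasf1 and above it in replicate 2.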

How the data were processed

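Chromatin immunoprecipitation libraries of wild type mycelium were compared as deposited lists of broad peaks, 1 per library. Per the labels, the authors used fastp, Bowtie2 and MACS2, and versions, settings and the use of inputs are not given in the sources used here. Peak names mention fastp and bowtie2 in replicate 1 only. In the deposited files each peak has a position, a score (the −log10 q times 10 without its decimals, with at most 1 exception per list), a fold enrichment (ratio) and the −log10 of its p-value and q-value. The authors' −log10 q cutoff was about 1 unit stricter in replicate 1, and differences within replicate numbers are therefore given. No read counts are included, so sequencing depth is unknown and counting intervals could not be made.

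Overlapping peaks of a list were merged in Python 3.11.15 (SciPy 1.17.1, NumPy 2.4.6, pandas 2.3.3), and plots were made in matplotlib 3.10.9. Positions count from 1 in the assembly Sm_v04_wtN named in the lists. A chromosome ends at the last position in any list or gene. Genes came from RefSeq (10804 genes, assembly ASM3387043v1, locus tags without symbols, products or strand). As assembly names differ, peaks were slid along genes, and in 28 of 28 combinations of list and chromosome the overlap with genes peaked within 100 bp of the unshifted position. The median share was 76.3% without offset and 57.7% at 3 to 5 kb. Gene groups by product could not be formed, and no gene coordinates of that table are printed.

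The 4 libraries were compared by exact two-sided permutation tests (log2 values for ratios), with Benjamini-Hochberg adjustment over 7 comparisons. Regions, genes, windows and overlaps are descriptions without a test. Named are the 10 longest H3K27me3-only stretches, the 6 longest H3-only and shared stretches, 6 windows at each extreme, the 10 longest genes of each call with the genes in the named stretches, the 3 widest peaks per list and all 14 ends. The calculations were tested on simulated lists. Alternatives were other cutoffs, joined peaks, exclusion of the rRNA array, other distances and thresholds, a replicate block and the omission of each library. The libraries and the named lists were chosen with earlier results of these data known. The 8 inputs were not used.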

Additional observations from a re-analysis of the deposited data

Results flagged for a closer look

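The difference between H3K27me3 and H3 in the share of covered length within 100 kb of chromosome ends was positive in both wild type replicates (3.86 and 9.80 points) and negative in both Δasf1 replicates (−0.46 and −0.49 points). It was listed because the strains moved in opposite directions with the rRNA array included. The strains differed by 7.30 points (exact permutation test, p = 0.33, which is the smallest value 2 replicates per strain allow). Over the 13 ends without the array, median cover in Δasf1 was lower for H3K27me3 than for H3 in replicate 1 (5.21% against 10.2%). In replicate 2 it was higher (13.4% against 7.93%).

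The share of covered length in genes was listed for the same reason. H3K27me3 minus H3 was −5.60 and −13.4 points in the wild type, and 2.16 and 0.49 points in Δasf1. The strains differed by −10.8 points (exact permutation test, p = 0.33). Growth time differed with the strain, and their parts cannot be told apart.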

How the results depend on the processing

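No comparison between antibodies could pass 0.05 under any alternative, because 2 libraries per antibody do not allow it. The ratios of peak number (0.74 to 0.76) and covered length (0.58 to 0.86), the ratio of median width (0.71 to 0.99) and the differences in the share near ends (3.62 to 10.0 points) and in genes (−16.5 to −2.47 points) kept their direction when each library was left out. The share in peaks of 5 kb or more ranged from −0.61 to 16.4 points and was −4.12 points for peaks of 2 kb or more. The Jaccard difference ranged from −5.49 to 21.9 points, with −3.90 without H3 replicate 1. Same-numbered libraries share their q-value cutoff and form of peak names, but the labels name no common batch. Per window, their deviations from the antibody means did not go together (r = −0.01 over 786 windows), which cannot show a shift of a whole list. From replicate 1 to 2 the share in genes fell from 76.8% to 62.8% for H3K27me3 and from 82.4% to 76.2% for H3. Covered length and the shares near ends and in peaks of 5 kb or more rose for both antibodies. Peak number and median width moved in opposite directions. An effect of replicate number itself was not tested. A replicate block gave ratios of 0.75 for peak number, 0.70 for covered length and 0.83 for width and differences of 7.91, 6.83 and −9.49 points, with exact p of 0.5 or 1.0. Counts of regions and genes depended on the settings. H3K27me3-only regions numbered 149 and H3-only regions 407 at a common −log10 q of 2.05, 265 and 365 with the 4764 top peaks of each list, and 54 and 434 when 50% of a region had to be covered. H3K27me3-only genes numbered 187 and H3-only genes 119 with equal numbers of peaks, which turned their order round, and 69 and 45 when genes had to be covered to 80%. Windows with more H3K27me3 numbered 112 at the common cutoff and 105 with equal numbers of peaks. With windows of 25 kb there were 116 above and 873 below, and with windows of 100 kb 25 and 270. Without 1 library, H3K27me3-only regions numbered 208 to 957, H3-only regions 1268 to 2080, H3K27me3-only genes 148 to 581, H3-only genes 303 to 1006, windows above 63 to 149 and windows below 507 to 639. More are called then because fewer lists have to agree. The right end of chromosome 2 changed to +0.496 points without the rRNA array, and the zone from 100 to 200 kb ranged from −2.41 points without H3K27me3 replicate 2 and −0.48 points without H3 replicate 1 to 12.3 points without H3K27me3 replicate 1. The named stretches, genes and windows were called or ranked by their difference in these same lists. Their sign was thus largely fixed by the choice, and its stability is no support for them. Of 70 named items and zones with a signed difference, 68 did not change sign under any alternative run, but 6 of them fell to 0 with the upper 50% of peaks. These were the genes SMAC4_01568, SMAC4_02386, SMAC4_05315, SMAC4_05506 and SMAC4_08333 and the H3-only stretch on chromosome 7.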

Other observations

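Of 445 tRNA genes, 407 had no peak in any list. They are short, with a median length of 87 bp against 1927 bp for protein-coding genes, and 54.1% of the genome and 17.2% of all genes lay in no peak. At least 50% cover was found for 6 and 24 of them in the H3K27me3 lists, against 4 and 20 in the H3 lists. Of the 30 rRNA genes, at least 50% cover was found for 29 and 27 by H3K27me3, against 30 and 29 by H3.

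Genes called for the same antibody were mostly scattered. The 105 protein-coding H3K27me3-only genes formed 91 runs of neighbours, of which 11 held 2 or more genes and the longest 4. The 188 H3-only genes formed 179 runs, of which 8 held 2 or more genes and the longest 3.

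Peaks of H3K27me3 that did not touch a peak of the H3 list with the same replicate number were counted. They numbered 902 in replicate 1 and 1319 in replicate 2, with median fold enrichments of 1.35 and 1.33. Peaks of H3K27me3 that lay to at least 50% in peaks of that H3 list numbered 3157 and 2539, with medians of 1.38 and 1.32. The H3 list of the other replicate number was not considered here.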
